A study of Homo sapiens with 30 samples.

Results

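Messenger RNA of 10 genes of the Eph family was followed in A375 cells, an established human melanoma line, across 30 polyA RNA-seq libraries. The members were chosen by name: the Eph receptors EPHA2, EPHA3, EPHA4, EPHB2, EPHB3, EPHB4 and EPHB6 and the ephrin ligands EFNA1, EFNB1 and EFNB2, 10 of the 26364 genes listed in the count files. Their choice was made with earlier results of these data known. All 10 passed the filter on low counts. The libraries form 10 groups of 3, set by an antibody sort for integrin β4 (ITGB4, a laminin receptor subunit) and by passage through transwell membranes coated with fibronectin, whose pores measured 5 µm. Cells sorted from the unselected line after 0 rounds form the groups Parental negative and Parental positive. Top 10 negative and Top 10 positive cells had failed to cross in 10 rounds, and Top 5 positive cells had failed to cross in 5. Bottom 10 negative and Bottom 10 positive cells had crossed in 10 rounds, and Bottom 5 negative cells had crossed in 5. Presorted negative and Presorted positive cells were sorted from the line first and then crossed in 4 and 5 rounds, respectively. All groups share the same line, and the labels number the replicates 1 to 3 without saying how the cultures were related. The p-values below therefore measure the spread between these libraries.

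Eph receptors are the largest family of receptor tyrosine kinases, and their ligands, the ephrins, are themselves held in the membrane of a neighbouring cell. Ephrin-A ligands carry a lipid anchor and mostly bind EphA receptors, whereas ephrin-B ligands span the membrane and mostly bind EphB receptors and EPHA4. Contact between them sends signals into both cells and commonly ends in repulsion or in a change of cell shape. EPHA2 is well known in melanoma, where it can also act without ligand.

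Gene counts per library ran from 14258919 to 29134945. The melanocyte lineage factors SOX10 (287 to 1460 CPM, counts scaled to a common library size) and MITF (23.2 to 66.3 CPM) were present in all libraries, while the pigment genes PMEL (at most 1.68 CPM) and MLANA (at most 0.539 CPM) were low, TYR was at 0 in 28 libraries, and DCT ran from 0 to 13.97 CPM (median 0.854). The T cell marker CD3E was at 0 in all 30 libraries, and the keratinocyte markers KRT1 in 24 and DSG3 in 23. The keratinocyte list also holds KRT5 (at most 0.811 CPM), KRT14 (0.227 to 40.0 CPM) and KRT10 (62.9 to 187 CPM), the last 2 at 0 in no library. ITGB4 RNA in each positive library of the Parental, Top 10 and Bottom 10 groups exceeded that in the negative library with the same replicate number, and it reached 322 CPM in a Presorted negative library, whose cells had migrated for 4 rounds after the sort. On the second principal component 6 libraries stood apart with a score above 30. They were Top 10 negative replicate 1, Bottom 10 positive replicate 3, Presorted negative replicate 2, Bottom 5 negative replicate 2 and Top 5 positive replicates 1 and 3. In bulk RNA fewer cells that express a gene and less RNA per cell cannot be told apart.

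The results turn on EPHB3, EPHA2 and EPHA3. The 250 bases upstream of their RefSeq start sites (GRCh38.p14) are printed 5′ to 3′ on the strand of the gene, so that the sequence next to each changing transcript can be read. Matches on either strand to 5 motifs are in capitals: AP-1 (TGANTCA), TEAD (GGAATG), E-box (CACGTG), TCF/LEF (CTTTGNT) and GC box (GGGCGG). The EPHA2 window is chr1:16156070-16156319, the EPHA3 window chr3:89107371-89107620 and the EPHB3 window chr3:184561535-184561784.
EPHA2: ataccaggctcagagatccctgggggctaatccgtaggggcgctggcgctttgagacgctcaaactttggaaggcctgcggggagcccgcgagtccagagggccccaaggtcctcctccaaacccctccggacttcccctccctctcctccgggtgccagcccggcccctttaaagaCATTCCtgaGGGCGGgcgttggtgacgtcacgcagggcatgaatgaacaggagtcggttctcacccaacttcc
EPHA3: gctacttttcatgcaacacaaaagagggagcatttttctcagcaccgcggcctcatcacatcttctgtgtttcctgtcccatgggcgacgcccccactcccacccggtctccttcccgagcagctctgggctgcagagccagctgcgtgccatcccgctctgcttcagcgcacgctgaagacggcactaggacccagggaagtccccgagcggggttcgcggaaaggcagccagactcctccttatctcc
EPHB3: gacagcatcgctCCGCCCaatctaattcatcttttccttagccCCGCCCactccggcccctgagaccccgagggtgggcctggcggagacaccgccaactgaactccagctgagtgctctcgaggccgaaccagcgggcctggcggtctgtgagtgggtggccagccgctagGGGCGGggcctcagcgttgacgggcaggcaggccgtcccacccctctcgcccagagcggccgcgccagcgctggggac
The EPHA2 window held 1 TEAD match and 1 GC box, side by side and not overlapping. The EPHB3 window held 3 GC boxes, and the EPHA3 window held no match to any of the 5. Among 35116 RefSeq windows of the same length, 42.6% held a GC box, 11.9% a TEAD match, 13.2% a TCF/LEF match, 6.57% an AP-1 match and 6.34% an E-box. GC content was 63.2% for EPHA2, 61.2% for EPHA3 and 70.0% for EPHB3. A match describes letters in the window and not a bound site.

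Levels are given as CPM after TMM scaling and are set between genes only per kilobase of exon (lengths from GENCODE on GRCh38, while the counts were made on hg19). EPHA2 was the most abundant Eph receptor on that scale, with a median of 114 CPM per kb over the 30 libraries, ahead of EPHB4 at 18.9 and EPHA3 at 8.92. EPHB3 followed at 3.60, EPHB2 at 2.05 and EPHA4 at 1.31 CPM per kb. EPHB6, which has lost kinase activity, was close to the limit of counting at 0.0983 CPM per kb. Among the ligands EFNA1 had a median of 9.82, EFNB2 of 5.51 and EFNB1 of 2.87 CPM per kb. EPHA2 was thus above its ligand EFNA1 on this scale in the median. The strand setting of the counting was not given in the sources used here, so reads of EPHA4, EPHB2 and EFNB2 cannot be told apart from those of a gene on the opposite strand that overlaps an exon of each (AC079834.2, MIR4253 and AL138689.2).

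**Figure D1:**
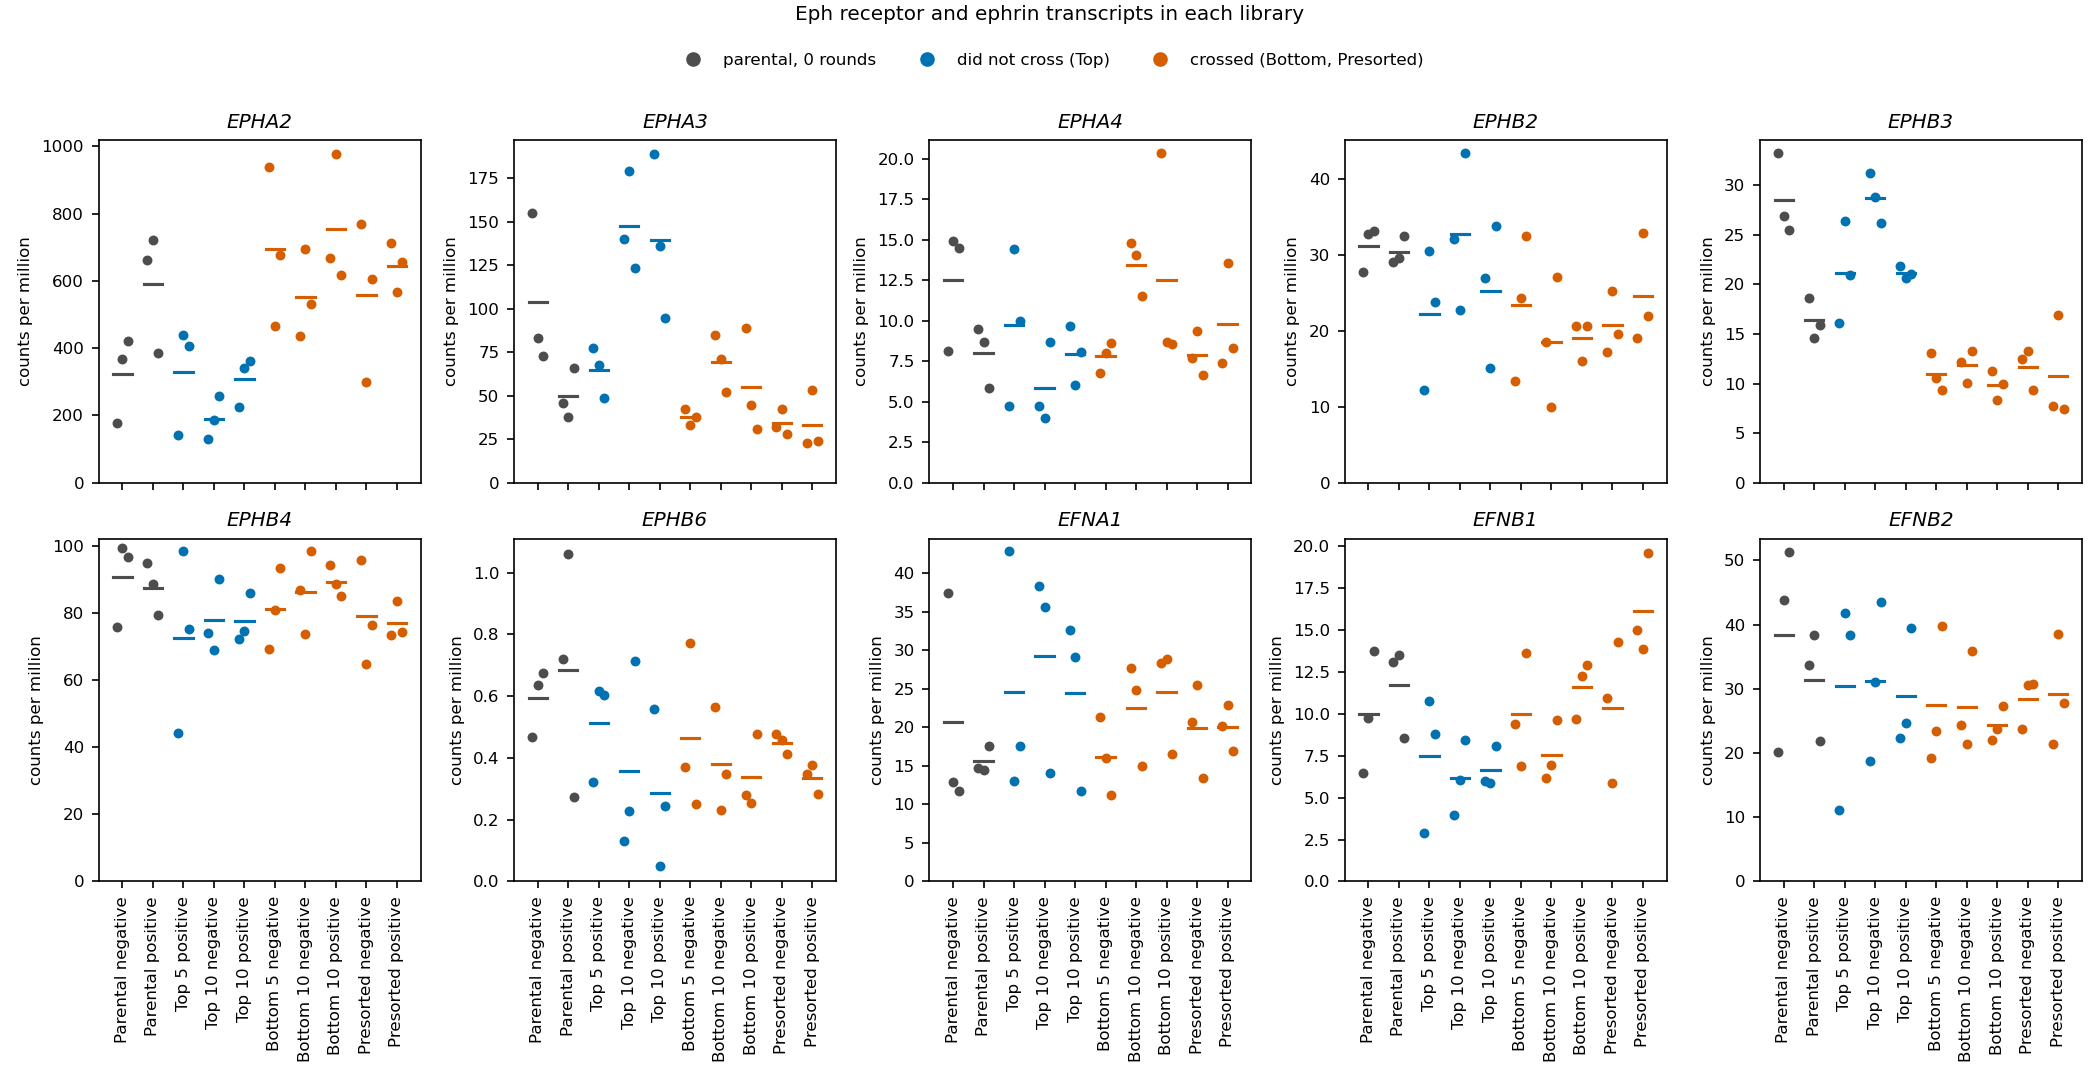
CPM of the 10 members in each library, by group; each point is 1 library, in replicate order from left to right, and each bar is the mean of 3. EPHB3 lies lower in the crossed groups (orange) than in the Top 10 groups (blue). EPHA2 has higher means in the crossed groups than in the Top groups. Its Parental positive mean (591 CPM) lies above those of Bottom 10 negative (553 CPM) and Presorted negative cells (558 CPM). Its level in Presorted negative replicate 2 (299 CPM) lies below Top 10 positive replicates 2 and 3 (340 and 361 CPM). EPHB4 lies between 44.3 and 99.5 CPM over all libraries.

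The comparison of crossed with uncrossed cells after 10 rounds asks what differs between cells that pass the pores and cells that stay behind. EPHB3, an ephrin-B receptor known for sorting cells into compartments in the gut, was lower in the crossed cells of both sorts. EPHA2 was higher and EPHA3 lower in crossed cells when the sorts were averaged. The other members did not pass the edgeR test in the fit of all 30 libraries, while DESeq2 also called EPHA4 in the average.

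EPHB3 stood at 31.2, 28.8 and 26.2 CPM in the 3 Top 10 negative libraries and at 12.2, 10.0 and 13.3 CPM in the Bottom 10 negative libraries. In the positive sort it stood at 21.8, 20.6 and 21.0 CPM in Top 10 cells and at 11.3, 8.39 and 9.99 CPM in Bottom 10 cells. All 6 crossed libraries were below all 6 uncrossed ones. On the log2 scale EPHB3 differed by -1.28 ± 0.25 (SE) among negative cells and by -1.10 ± 0.25 among positive cells (edgeR adjusted p = 0.0061 and 0.0308). Averaged over the sorts it was -1.19 ± 0.18, a 2.28-fold lower level (edgeR adjusted p = 0.000139). The call in the negative sort was lost without Bottom 10 negative replicate 2 (adjusted p = 0.0679), and that in the positive sort was lost without any single one of its 6 libraries (adjusted p from 0.054 to 0.211) and without the 6 libraries that stood apart (0.0871). The averaged call was kept in each of these fits that left out libraries.

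EPHA2, a receptor of ephrin-A ligands that is often abundant in tumours, moved the other way. It stood at 129, 185 and 257 CPM in Top 10 negative cells and at 435, 695 and 530 CPM in Bottom 10 negative cells. Positive cells had 225, 340 and 361 CPM in Top 10 cells and 669, 977 and 617 CPM in Bottom 10 cells. Groups did not overlap in either sort, nor did the 6 crossed and the 6 uncrossed libraries. On the log2 scale the difference was 1.54 ± 0.41 for negative and 1.29 ± 0.41 for positive cells, neither past the threshold of 0.05 (edgeR adjusted p = 0.069 and 0.196). Averaged over the sorts EPHA2 was 2.66-fold higher in crossed than in uncrossed cells (log2 1.41 ± 0.29, edgeR adjusted p = 0.00424). Its parental means were 322 CPM in the negative and 591 CPM in the positive sort. Both lay between the Top 10 and Bottom 10 means of their sort.

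EPHA3, an EphA receptor of embryonic tissues that recurs in several cancers, was lower in crossed cells. It stood at 140, 179 and 123 CPM in Top 10 negative cells and at 84.6, 71.3 and 52.2 CPM in Bottom 10 negative cells. Positive cells had 189, 136 and 94.4 CPM in Top 10 cells and 88.9, 44.5 and 30.8 CPM in Bottom 10 cells. Again no crossed library reached an uncrossed one. Within single sorts its log2 difference was -1.09 ± 0.38 for negative and -1.35 ± 0.38 for positive cells (edgeR adjusted p = 0.217 and 0.106). Averaged over the sorts EPHA3 was 2.33-fold lower in crossed than in uncrossed cells (log2 -1.22 ± 0.27, edgeR adjusted p = 0.00665). Its parental mean in the negative sort, 104 CPM, lay between the Top 10 and Bottom 10 means. In the positive sort the parental mean was 49.8 CPM, below the Bottom 10 mean of 54.7 CPM.

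The other EphA receptor among the members, EPHA4, which binds both classes of ephrin, stood at 4.77, 3.99 and 8.71 CPM in Top 10 negative cells and at 14.8, 14.1 and 11.5 CPM in Bottom 10 negative cells. In the positive sort it stood at 9.67, 6.06 and 8.07 CPM in Top 10 cells and at 20.3, 8.69 and 8.55 CPM in Bottom 10 cells. The groups were apart in the negative sort and overlapped in the positive sort. Its log2 difference was 1.21 ± 0.39 for negative and 0.66 ± 0.38 for positive cells (edgeR adjusted p = 0.161 and 0.688). Its averaged log2 fold change of 0.94 ± 0.27 missed the threshold (edgeR adjusted p = 0.0514) and passed it with DESeq2 (adjusted p = 0.0206) and, in edgeR, without Top 10 negative replicate 3, Bottom 10 positive replicate 2 or Bottom 10 positive replicate 3. EPHB2, an ephrin-B receptor, had means of 32.8 ± 10.4 CPM (SD, n = 3) in Top 10 negative cells and 18.6 ± 8.58 in Bottom 10 negative cells. On the log2 scale it differed by -0.82 ± 0.36 in the negative sort, by -0.40 ± 0.36 in the positive sort and -0.61 ± 0.26 in the average (edgeR adjusted p = 0.464, 0.864 and 0.257).

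EPHB4, the receptor that pairs with EFNB2 in blood vessel formation, had the narrowest range of the members. On the log2 scale it differed by 0.15 ± 0.21 among negative and by 0.20 ± 0.21 among positive cells (edgeR adjusted p = 0.999 and 0.895). Its averaged log2 fold change was 0.18 ± 0.15, with a 95% interval of -0.13 to 0.49 that holds no change of the size seen for EPHB3 (edgeR adjusted p = 0.826). EPHB6 had only 1 to 20 counts per library. Its averaged log2 fold change was 0.14 ± 0.46, with an interval of -0.83 to 1.11 that holds both rises and falls (edgeR adjusted p = 1). In the single sorts it was 0.08 ± 0.64 and 0.19 ± 0.67 (edgeR adjusted p = 0.999 and 0.974). Among the ligands, the averaged log2 fold change was -0.19 ± 0.33 for EFNA1, 0.55 ± 0.28 for EFNB1 and -0.22 ± 0.29 for EFNB2 (edgeR adjusted p = 1, 0.424 and 0.984). In the negative sort the values were -0.38 ± 0.47, 0.30 ± 0.39 and -0.19 ± 0.41, and in the positive sort 0.01 ± 0.47, 0.81 ± 0.39 and -0.24 ± 0.41, in the same order (smallest edgeR adjusted p = 0.557, for EFNB1). These ligands differ in class: EFNA1 is lipid-anchored, while EFNB1 and EFNB2 span the membrane. EFNB1 stood at 9.67, 12.3 and 12.9 CPM in Bottom 10 positive cells and at 5.97, 5.86 and 8.07 CPM in Top 10 positive cells, without overlap.

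**Figure D2:**
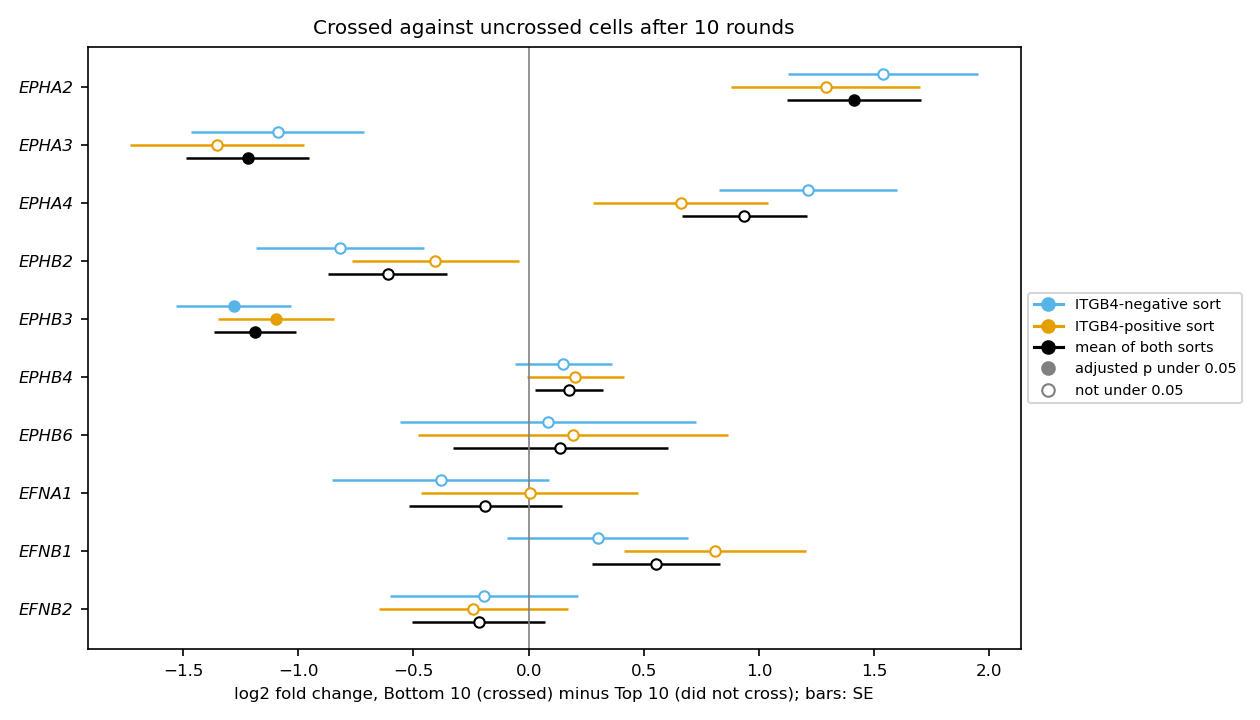
Log2 fold change (x axis, bars are SE) of each member between Bottom 10 and Top 10 cells, in each sort and averaged; filled points passed the adjusted threshold of 0.05. EPHB3 is filled in all 3 comparisons, EPHA2 (1.41) and EPHA3 (-1.22) only in the average.

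Of the 10 members 1 was called in the negative sort, where 1.33% of all tested genes were called, and 1 in the positive sort, against 0.943%. In the average of the sorts 3 were called, against 3.97%. Libraries of crossed and uncrossed cells did not overlap for 4 of 10 members in the negative sort (16.1% of all tested genes), for 4 in the positive sort (15.2%) and for 3 over both sorts (3.47%). The median size of the log2 fold change was 0.58 for the members and 0.16 for all 15381 tested genes in the average, and 5 of the 10 members lay above 0. Because the members were chosen with earlier results of these data known, these shares and sizes are no test of the family. No member passed the test of a difference in response between the sorts: the interaction called 0 members and 0 genes with edgeR, and 0 members and 441 genes (2.87%) had an unadjusted p under 0.05. DESeq2 called 0 members there.

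Libraries of the same replicate number mostly deviated together within these groups, and a term for the number changed the calls. Among the 4 Top 10 and Bottom 10 groups, 17 of 18 same-number pairs had deviations that correlated above 0.1, and the lowest value was -0.122. The 4 groups as a set thus did not fully pair. In the fit of the compared groups alone, the term gave 5 members in the negative sort, where 11.1% of genes were called, and 3 in the positive sort, against 4.14%. In the negative sort these were EPHB3 (-1.28, edgeR adjusted p = 0.000268), EPHA2 (1.57, adjusted p = 0.000139), EPHA3 (-1.09, adjusted p = 0.00059), EPHA4 (1.28, adjusted p = 0.00565) and EPHB2 (-0.87, adjusted p = 0.0028). In the positive sort they were EPHB3 (-1.10, edgeR adjusted p = 0.0173), EPHA2 (1.29, adjusted p = 0.027) and EPHA3 (-1.43, adjusted p = 0.0104). With the 4 Top 10 and Bottom 10 groups in 1 such fit, the average of the sorts gave 6 members, against 14.9% of genes. EPHA4 (0.93, edgeR adjusted p = 0.0252), EPHB2 (-0.60, adjusted p = 0.00906) and EFNB1 (0.57, adjusted p = 0.00809) were added to the 3 named above. Without replicate 1 of all 4 groups the average called 3 members, among 1407 of 14655 genes called. The added EPHA4, EPHB2 and EFNB1 then missed the threshold (edgeR adjusted p = 0.109, 0.0747 and 0.0507). Without replicate 2 of all 4 groups that fit called 2 members, EPHA2 and EPHB3, among 502 of 14574 genes, and EPHA3 had an adjusted p of 0.0526. Without replicate 3 it called 6 members, among 2442 of 14705 genes.

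In the ratio of EPHA2 to EPHA3 counts within a library, the depth and the scaling cancel. It restates the same counts and rises with more EPHA2, with less EPHA3 or with both, so it cannot show that each changed. EPHA2 had 0.924, 1.03 and 2.08 counts for each EPHA3 count in Top 10 negative cells and 5.14, 9.74 and 10.2 in Bottom 10 negative cells. Among positive cells the ratio was 1.19, 2.50 and 3.83 in Top 10 cells and 7.53, 21.9 and 20.1 in Bottom 10 cells. The ratio was 14.1 to 22.1 in Bottom 5 negative cells, 7.01 to 24.0 in Presorted negative cells and 10.7 to 31.5 in Presorted positive cells. Top 5 positive cells, which had not crossed, spread from 1.82 to 8.31. Their replicates 2 and 3 lay within the range of the Bottom 10 libraries, so the ratio did not separate all crossed from all uncrossed libraries. Parental negative libraries spread from 1.14 to 5.83 and Parental positive ones from 5.86 to 19.3. This ratio was chosen after its values were seen and carries no test.

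**Figure D3:**
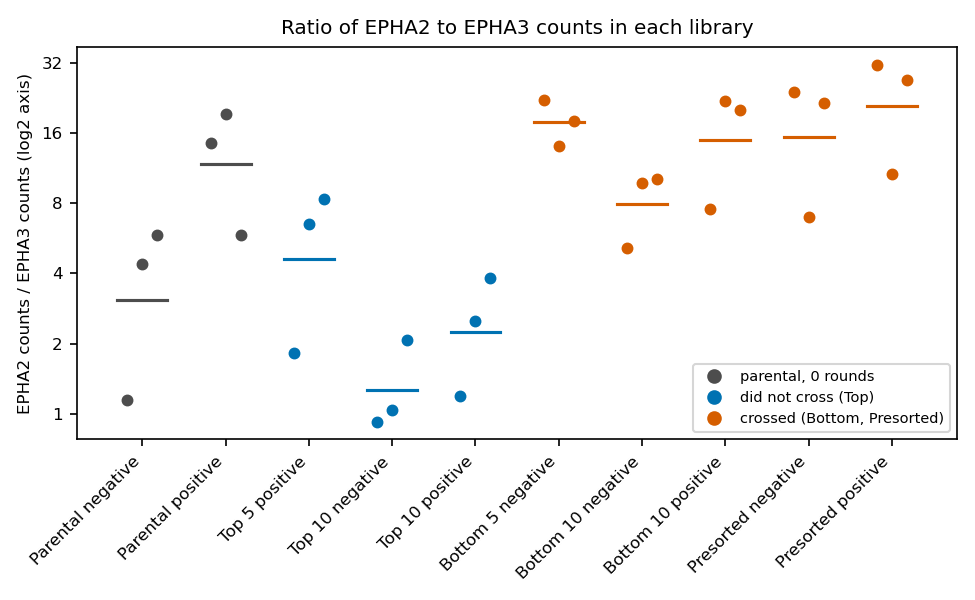
Counts of EPHA2 divided by counts of EPHA3 in each library (log2 axis); points are libraries and bars the geometric mean of 3. The 6 Top 10 libraries lie between 0.924 and 3.83 and the 6 Bottom 10 libraries between 5.14 and 21.9. Top 5 positive replicates 2 and 3, which had not crossed, lie within the Bottom 10 range.

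The make-up of the receptor transcripts followed these changes. As a share of the CPM per kb of all 14 Eph receptors, EPHA2 took 47.1% in Top 10 negative cells and 60.7% in Top 10 positive cells, and 76.9% and 82.9% in the Bottom 10 groups. EPHA3 took 22.7% and 17.0% in the Top 10 groups and 5.93% and 3.67% in the Bottom 10 groups. In Parental negative cells EPHA2 took 59.7% and EPHA3 13.2%. In Parental positive cells they took 78.6% and 4.39%, near the shares in Bottom 10 positive cells. EPHB4, which was not called in its own level, went from 18.1% in Top 10 negative cells to 11.3% in Bottom 10 negative cells, since shares add up to the same whole. The summed receptor level was 100 ± 17.7 CPM per kb (SD, n = 3) in Top 10 negative, 180 ± 29.7 in Bottom 10 negative and 132 ± 30.2 in Parental negative cells. The summed ephrin level was 40.8 ± 8.97, 38.0 ± 6.02 and 38.1 ± 6.15 CPM per kb in the same groups. In the positive sort the summed receptor level was 127 ± 13.2 in Top 10, 228 ± 48.7 in Bottom 10 and 188 ± 45.2 in parental cells.

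**Figure D4:**
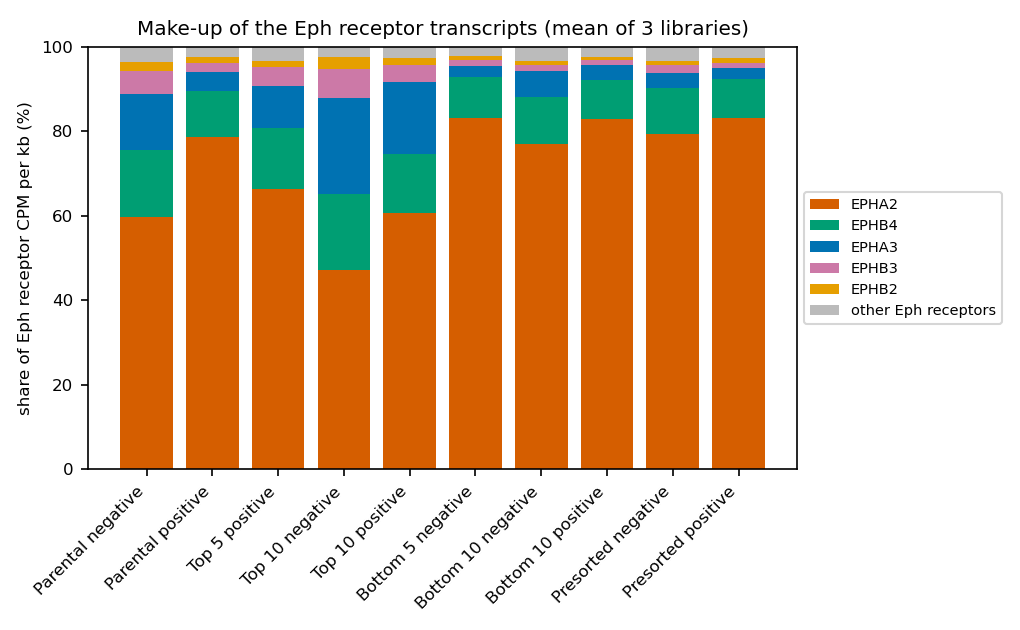
Share of the summed CPM per kb of all Eph receptors taken by each receptor (y axis, %), as the mean of 3 libraries in each group. EPHA2 (orange-red) takes 47.1% in Top 10 negative cells and 83.2% in Bottom 5 negative cells; EPHA3 (blue) takes 22.7% and 2.80%.

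Each migrated or unmigrated group was also compared with parental cells of its own sort. Comparisons within a sort share the same 3 parental libraries, so their values are given side by side. In the negative sort EPHB3 stood at 33.3, 26.9 and 25.4 CPM in parental cells. It stood at 13.0, 10.6 and 9.32 CPM in Bottom 5 negative cells and at 12.5, 13.3 and 9.36 CPM in Presorted negative cells. Every crossed library of the negative sort was below every parental one. EPHB3 fell in Bottom 10 negative (-1.27 ± 0.25, edgeR adjusted p = 0.0196), Bottom 5 negative (-1.38 ± 0.25, adjusted p = 0.00667) and Presorted negative cells (-1.29 ± 0.25, adjusted p = 0.00803). In Top 10 negative cells its log2 fold change against parental cells was 0.01 ± 0.25 (edgeR adjusted p = 0.998).

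EPHA3 fell in Presorted negative cells, where it stood at 32, 42.7 and 28.2 CPM against 155, 83.4 and 72.6 CPM in Parental negative cells (-1.60 ± 0.38, edgeR adjusted p = 0.0299). In Bottom 5 negative cells it stood at 42.4, 33.1 and 37.5 CPM (-1.46 ± 0.38, edgeR adjusted p = 0.0693). Replicate numbers paired in that comparison, and with the term for the number EPHA3 passed the threshold (-1.38 ± 0.19, edgeR adjusted p = 0.0128, with 3.82% of genes called). Parental negative replicate 1 was the highest of the 3 for EPHA3 and the lowest for EPHA2, at 177 CPM against 367 and 423. Without it EPHB3 was called neither in Bottom 10, Bottom 5 nor Presorted negative cells, and EPHA3 was not called in Presorted negative cells. Leaving out Bottom 5 negative replicate 2 or 3 also ended the call of EPHB3 there, and leaving out Presorted negative replicate 1 or 3 ended that of EPHA3. In fits of only the groups compared, with no term for the replicate number, none of these 4 calls remained. With the term, in the comparison whose numbers paired, EPHB3 in Bottom 5 negative cells was called (-1.37, edgeR adjusted p = 0.00684).

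Members called against parental cells were 1 of 10 in Bottom 10 negative cells (0.325% of all tested genes), 1 in Bottom 5 negative cells (0.858%) and 2 in Presorted negative cells (2%). None of the 10 was called in Top 10 negative (0.0455%), Top 10 positive (0.384%), Top 5 positive (0.163%), Bottom 10 positive (0.247%) or Presorted positive cells (0.039%) with edgeR. At an unadjusted p under 0.05 these 5 comparisons held 1, 3, 1, 1 and 1 members (4.74%, 9.05%, 17.4%, 8.3% and 3.01% of all tested genes), and DESeq2 called 1, EPHA3 in Top 10 positive cells. There EPHA3 stood at 189, 136 and 94.4 CPM against 45.8, 37.5 and 66.1 CPM in Parental positive cells, without overlap (1.49 ± 0.38, edgeR adjusted p = 0.093). In the positive sort EPHB3 stood at 18.7, 14.6 and 15.9 CPM in parental cells, above the 3 Bottom 10 positive libraries, while Presorted positive cells spread from 7.48 to 16.9 CPM. The call was lost for EPHB3 in Bottom 10 negative cells without 5 of the 6 libraries in turn, all but Parental negative replicate 3 (adjusted p up to 0.183).

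**Figure D5:**
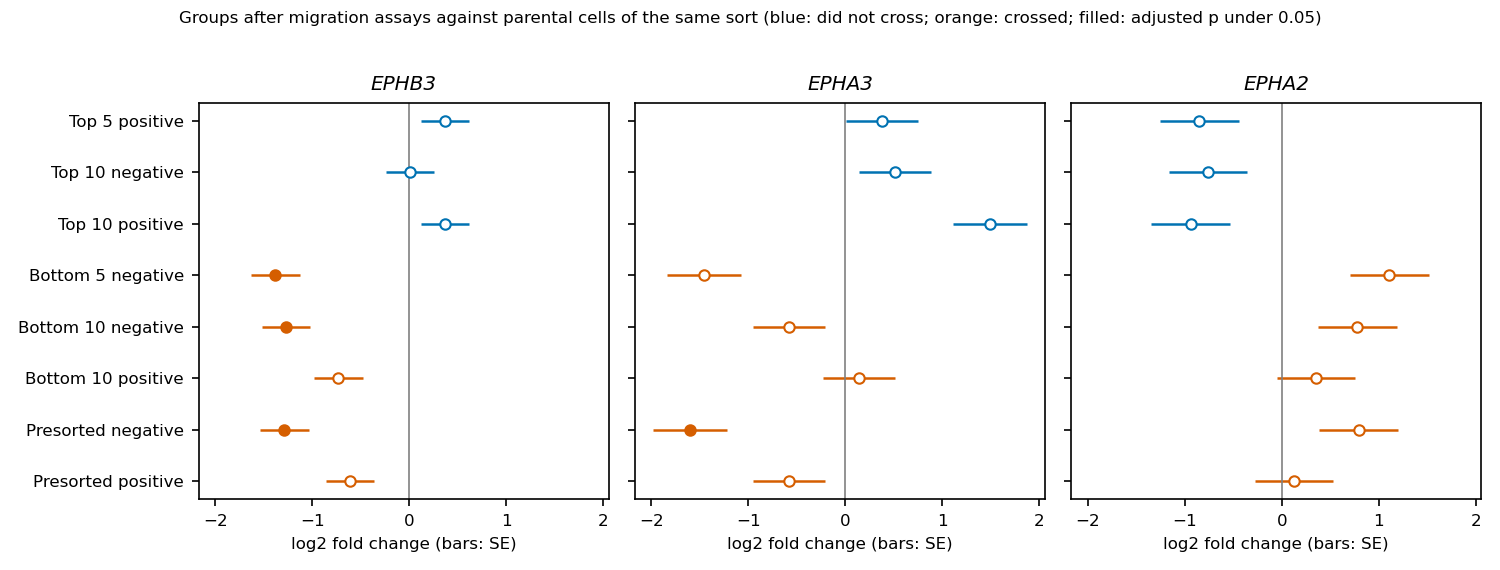
Log2 fold change (x axis, bars are SE) of EPHB3, EPHA3 and EPHA2 in the 8 groups against parental cells of the same sort; orange groups crossed, blue groups did not, and filled points passed the adjusted threshold of 0.05. EPHB3 is filled in Bottom 5 (-1.38), Bottom 10 (-1.27) and Presorted negative cells (-1.29), and EPHA3 in Presorted negative cells (-1.60).

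Ordered by group mean, EPHB3 was lowest in the 5 crossed groups: Bottom 10 positive (9.89 CPM), Presorted positive (10.7), Bottom 5 negative (11.0), Presorted negative (11.7) and Bottom 10 negative (11.8). These 5 overlapped each other from neighbour to neighbour. Parental positive cells came next at 16.4 CPM with no overlap with Bottom 10 negative cells, then Top 5 positive and Top 10 positive cells at 21.1 and 21.2 CPM. The highest Presorted positive library, at 16.9 CPM, lay within the Parental positive range (14.6 to 18.7 CPM). It was also above the lowest Top 5 positive library (16.1 CPM), so the crossed groups were not fully apart from the others. Parental negative and Top 10 negative cells had the highest means at 28.5 and 28.7 CPM, above Top 10 positive cells without overlap. EPHA2 ran from 190 CPM in Top 10 negative to 755 CPM in Bottom 10 positive cells and EPHA3 from 33.3 CPM in Presorted positive to 148 CPM in Top 10 negative cells. For both, each group overlapped its neighbour in the order. Top 5 positive cells, which had not crossed, had a lower EPHA3 mean (64.5 CPM) than Bottom 10 negative cells (69.4 CPM).

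The sort itself asks whether cells with and without surface ITGB4 differ before and after migration. Between positive and negative cells edgeR called 0 of 10 members in parental cells (0.0585% of all tested genes), Top 10 cells (0.013%), Bottom 10 cells (0%) and the average of these (0.364%). At an unadjusted p under 0.05 the counts were 3, 0, 0 and 3 members (4.45%, 1.71%, 3.57% and 5.21% of genes), and DESeq2 called 0. EPHB3 was the member with the smallest p in the average and was named after its values were seen: positive cells were lower, by -0.50 ± 0.14 on the log2 scale (edgeR adjusted p = 0.173). In the fit of only the groups compared it was called (-0.50, edgeR adjusted p = 0.0301). In parental cells the 3 positive libraries were below the 3 negative ones for EPHB3 and EPHA3, 2 of 10 members, against 9.43% of all genes. In Top 10 cells 1 member, EPHB3, was lower without overlap (5.85% of genes), and in Bottom 10 cells 1, EFNB1, was higher (11.3%). EPHA2 stood at 664, 723 and 387 CPM in Parental positive and at 177, 367 and 423 CPM in Parental negative cells, which overlap.

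All members but EPHA2, EPHA3 and EPHB3 varied more within groups than between group means on the log2 scale, EFNA1 and EFNB2 among them. EFNA1, the main ligand of EPHA2, stood at 38.3, 35.6 and 14.1 CPM in Top 10 negative cells and at 32.6, 29.1 and 11.7 CPM in Top 10 positive cells. In Bottom 10 cells it stood at 27.8, 24.8 and 15 CPM in the negative and at 28.3, 28.9 and 16.5 CPM in the positive sort. Replicate 3 was the lowest library in all 4 groups. EFNB2, the ligand of EPHB4, was highest in replicate 3 of the same 4 groups, at 43.6, 39.5, 36.0 and 27.4 CPM. What the replicate number stands for was not given in the labels, and its part in the levels was not tested beyond the fits with a term for it. The SD of log2 levels within groups was 0.62 for EFNA1 and 0.56 for EFNB2, above the SD of 0.25 and 0.15 between their group means. For EPHB3 the order was the reverse, 0.29 within groups and 0.61 between them.

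Across the 30 libraries, which share groups and replicate numbers, log2 levels of EPHA2 had a Pearson correlation of -0.74 with EPHA3, -0.72 with EPHB3 and 0.78 with EFNB1. EPHA3 and EPHB3 had one of 0.78. After group means were removed, the value was 0.83 for EPHA2 with EFNB1, -0.48 for EPHA2 with EPHA3, 0.51 for EPHA3 with EPHB3 and -0.09 for EPHA2 with EPHB3. EFNA1 and EFNB2 had -0.76 over all libraries and -0.83 within groups. The genes most like EPHB3 in pattern over the 30 libraries were MCF2L (r = 0.907), SCARA5 (0.896) and LOC158435 (0.892). Those most like EPHA2 were KRT80 (0.967), LINC00707 (0.958) and DNAH11 (0.953), and those most like EPHA3 were TRIM9 (0.947), SYTL5 (0.945) and GAREM (0.942).

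Of the other 12 genes of the family 9 passed the filter, and 0 of these were called by edgeR in any of the 16 comparisons. Of their 144 values 14 had an unadjusted p under 0.05, and DESeq2 called 0. At that threshold 1.71% to 17.4% of all tested genes passed in the comparisons where they were counted, so the 14 are not read as many or few. EPHA1, EPHA10 and EFNA2 did not pass, with at most 0.530, 0.382 and 0.585 CPM in any library. EPHB1, a receptor of ephrin-B ligands, had the widest spread of those above 1 CPM in the median. It stood at 1.82, 0.998 and 9.57 CPM in Top 10 negative cells and at 3.14, 6.06 and 10.3 CPM in Top 10 positive cells, and reached 16.6 CPM in a Bottom 10 positive library. Median levels were 6.02 CPM for EPHA7, 5.04 for EFNA3, 8.20 for EFNA4, 14.3 for EFNA5 and 8.35 for EFNB3. EPHA5, EPHA6 and EPHA8 had medians of 0.289, 0.542 and 0.0728 CPM.

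Of 46 listed partners that carry Eph and ephrin signals inside the cell 45 were tested, all but ARHGEF15. In the average of the crossing comparisons 0 rose and 1 fell, against 3.97% of all genes called, and 19 of 45 lay above 0, against 52.7% of all genes. The gene that fell was VAV3, an exchange factor that Eph receptors can recruit. Its mean was 0.372 ± 0.133 CPM (SD, n = 6) in crossed and 2.89 ± 1.79 CPM in uncrossed cells. VAV3 changed by -2.93 ± 0.38 on the log2 scale in the average (edgeR adjusted p = 3.05e-05), by -3.22 ± 0.54 in the negative sort (adjusted p = 0.0016) and by -2.63 ± 0.55 in the positive sort (adjusted p = 0.0148). The call in the positive sort was lost without Top 10 positive replicate 1 and without each Bottom 10 positive library in turn, without the 6 libraries that stood apart (adjusted p = 0.0618), and in the fit of only the groups compared (0.161). Against parental cells VAV3 fell in Bottom 10 negative (-2.52 ± 0.54, edgeR adjusted p = 0.034) and Presorted negative cells (-2.15 ± 0.53, adjusted p = 0.0336). Both of these calls were kept without Parental negative replicate 3 and lost without any other single library of the 2 groups compared.

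GRIP1, a scaffold that binds the tail of ephrin-B ligands, fell in Bottom 5 negative cells (-1.83 ± 0.42, edgeR adjusted p = 0.0366) and in Presorted negative cells (-1.71 ± 0.42, adjusted p = 0.0322). GRB10, an adaptor that can bind Eph receptors, fell in Presorted negative cells from 43.6 ± 34.7 to 4.46 ± 1.88 CPM (SD, n = 3, edgeR adjusted p = 0.0218). In the 16 comparisons edgeR called 0 of 720 partner values higher. At an unadjusted p under 0.05, 29 were higher and 80 differed in either direction. That threshold passed 1.71% to 17.4% of all tested genes in the comparisons where they were counted. DESeq2 called 2 higher, GRB10 and GRIP1 in Top 10 positive against parental cells. Lower calls numbered 8 of 720 values with edgeR and 15 of 736 with DESeq2. Of all tested genes edgeR called 0% to 3.97% per comparison in either direction, and the shares with DESeq2 are not given here. The kinases SRC and ABL2 were among those not called. The calls of VAV3, GRIP1 and GRB10 against parental cells were all lost without Parental negative replicate 1, and in fits of only the groups compared. Without the 6 libraries that stood apart, the calls of GRIP1 in Bottom 5 negative and of GRB10 and VAV3 in Presorted negative cells were lost. With no filter on low counts, the call of VAV3 in Bottom 10 negative cells was lost. GRIP1 in Bottom 5 negative cells was also lost without Parental negative replicate 2 and without each Bottom 5 negative library. In Presorted negative cells GRIP1 was lost without Parental negative replicate 2 and Presorted negative replicates 1 and 3, and GRB10 without Presorted negative replicates 1 and 2.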

How the data were processed

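Counts of reads per gene in 30 libraries were deposited by the authors as raw counts, made with STAR and HTSeq on hg19, with DESeq also listed, per the submitters' processing notes. Versions, annotation and strand setting are not given in the sources used here. Between 22.1% and 31.8% of reads per library were assigned to no gene and stayed out of library sizes. No pair of libraries of the same group agreed within sampling noise (chi-square per degree of freedom at least 11.6), and pairs across groups were not compared.

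Counts were analysed with edgeR 4.0.16 in R 4.3.3: TMM scaling, a filter on low counts (minimum count 10, minimum total 15), 10 group means in 1 quasi-likelihood fit, and Benjamini-Hochberg adjustment over all 15381 genes tested, with a threshold of 0.05. Log levels used a prior count of 2. Standard errors were obtained from the F statistic, as log2 fold change over its root. The procedure was run on counts simulated for the crossing comparison in the negative sort. That simulation held no effect of the replicate number and no libraries that stood apart, so it does not cover these features of the data. Counts from 14258919 to 29134945 per library and 3 libraries per group set the precision, and intervals have a 95% level. Alternatives were DESeq2 1.42.0, other scaling factors, no filter, a term for the replicate number, a fit of only the groups compared, and leaving out each library. A fit of 4 groups with that term and a fit without 6 libraries were chosen after seeing the data.

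The labels give replicate numbers without a pairing. Numbers were taken to pair libraries where deviations from the group means correlated above 0.1 in all 3 pairs. This held for the crossing comparison in the negative (0.406, 0.629 and 0.692) and positive sort (0.265, 0.573 and 0.547), the sort in Top 10 (0.314, 0.708 and 0.791) and Bottom 10 cells (0.278, 0.549 and 0.589), and Bottom 5 negative against parental cells (0.59, 0.379 and 0.415), and for none of the other 8 comparisons checked.

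All members are named, with tests where a call was made and in the crossing comparisons. Other family genes are named with levels, partner genes where called, and the 3 genes most correlated with each member called in crossing. The members and lists were chosen with earlier results of these data known. Clone cells of the study were not analysed here.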

Additional observations from a re-analysis of the deposited data

How the results depend on the processing

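The averaged crossing calls of EPHA2, EPHA3 and EPHB3 were kept in all 12 fits that left out 1 library and in the 8 other settings. Of single-gene values under an alternative, 567 kept direction and side of the threshold, 71 lost a call, 33 gained one and 21 changed sign. Of counts of members called, 198 stayed within 1.5 times and 40 did not. In the negative sort the crossing count of 1 became 2 with DESeq2, 5 with the replicate block and only the compared groups, 5 with the block and 4 groups, and 0 to 1 without single libraries. In the positive sort the count of 1 became 2 with DESeq2, 2 with the replicate block in all groups, 0 with only the compared groups, 3 with the block added to those, 4 with the block and 4 groups, 0 without the 6 libraries that stood apart, and 0 to 1 without single libraries. The averaged count of 3 became 6 with the replicate block in both smaller fits. Against parental cells, Top 10 positive went from 0 to 1 with DESeq2. Bottom 10 negative went from 1 to 0 with only the compared groups, with or without the block, and to 0 to 1 without single libraries. Bottom 5 negative went from 1 to 2 with DESeq2 and with the replicate block in all groups, to 0 with only the compared groups, to 2 with the block added, and to 0 to 1 without single libraries. Presorted negative went from 2 to 0 with only the compared groups, with or without the block, to 1 without the 6 libraries, and to 0 to 2 without single libraries. The averaged sort went from 0 to 1, EPHB3, with only the compared groups and to 1, EPHB3 again, with the block added (edgeR adjusted p = 0.00851). The fits of only the compared groups rest on fewer libraries. For all other counts the cause was not tested. The replicate block changed no other count of members by more than 1.5 times. All genes called went from 205 to 1587 in the negative and from 145 to 584 in the positive sort with the block and only the compared groups, and from 611 to 2177 in the average with the block and 4 groups. Signs changed only for values within 1 SE of 0. EFNA1 in the positive sort was -0.00705 with DESeq2, -0.00582 with RLE scaling factors, -0.0444 without the filter and -0.33 to 0.27 without single libraries, and its average was 0.0245 without the 6 libraries. EPHB6 was -0.33, -0.14 and -0.23 without the 6 libraries in the negative sort, the positive sort and the average, and -0.31 to 1.04, -0.27 to 1.13 and -0.0923 to 0.62 without single libraries. EFNB2 was -0.45 to 0.13 in the negative and -0.39 to 0.0531 in the positive sort without single libraries. With 3 libraries a group, the averaged change of EPHA4 lay near the limit of what passed the threshold, and EPHB6 was limited by its counts.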
